A study of Rattus norvegicus with 12 samples.

Results

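RNA from rat corneas labelled SF/HA was compared with RNA from corneas labelled Control, with 3 libraries in each group and so 6 of the 12 libraries of the series. The libraries were chosen by these labels, and the genes were all those with at least 1 FPKM (fragments per kilobase of gene, scaled to the depth of the library) in at least 3 of the 12 libraries, which left 6112 of the 30452 genes in the deposited table. The series concerns a silk-based patch that adheres to the ocular surface for a time and is meant to remove inflammatory mediators. The groups were SF/HA, Alkali-burned, SF/HA-HEP-PAM and Control, and every sample was rat cornea. What SF, HA, HEP and PAM stand for is not written in the labels, which leave unsaid whether corneas of the patch groups had been burned and give no strain, age, sex or sampling time. They also do not say whether replicates are separate animals, and p-values here therefore cover the spread among these libraries only, which may be technical.

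The cornea is a clear tissue made of a stratified epithelium, a collagen stroma kept by quiescent fibroblasts called keratocytes, and an inner endothelium. When it is injured, epithelial cells and keratocytes release chemokines and cytokines that draw neutrophils and monocytes from the limbal vessels, and keratocytes can turn into contractile myofibroblasts that deposit opaque matrix. Complement, matrix metalloproteinases and antimicrobial proteins act in the same setting. The tissue label was checked against defining genes. Krt12, the keratin of corneal epithelium, had 1949.6, 1393 and 1366 FPKM in SF/HA corneas, against 1697, 3655 and 3354 FPKM in Control corneas. Kera, a proteoglycan of the corneal stroma, had 135, 147 and 128 FPKM in SF/HA corneas, against 794, 288 and 322 FPKM in Control corneas. Both tissue layers were thus present in all 6 libraries. The endothelial check genes differed from each other. Slc4a11, a transporter of corneal endothelium, was covered by 5, 1 and 3 reads in SF/HA corneas, against 4, 6 and 17 reads in Control corneas. Col8a2, the other endothelial check gene, had 64, 34 and 105 reads in SF/HA corneas, against 58, 46 and 70 reads in Control corneas.

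Reads assigned to genes numbered 499061 to 957696 in SF/HA and 486264 to 1015788 in Control libraries, against 1173159 to 2117399 in the other 6 libraries of the series. At these depths a count of 0 on a 1 kb gene leaves room for 3.13 to 6.01 FPKM in SF/HA and 2.95 to 6.17 FPKM in Control libraries, for counting error only. FPKM was computed over the whole genomic span of each gene with introns, so that genes with long introns had low values for their reads. A pair of libraries stood apart from their groups. Control replicate 1, the shallowest, had the stromal Kera and Col1a1 at 2 to 3 times the level of the other Control libraries and less of the epithelial Krt12. SF/HA replicate 2 had the highest levels of S100a8, S100a9, Ccl3 and Il1b of its group. The share of reads on mitochondrially encoded proteins was 4.73%, 7.51% and 4.18% in SF/HA, against 2.99%, 3.66% and 3.55% in Control libraries. Mitochondrial ribosomal RNA went the other way, with 3.44%, 3.89% and 2.98% of reads in SF/HA, against 5.49%, 5.2% and 3.62% in Control libraries, and the part of these differences in the gene results was not tested.

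SF/HA corneas had more RNA than Control corneas for 9 of 19 chemokines, 9 of 12 complement genes, 9 of 15 macrophage markers, 6 of 19 matrix proteases and inhibitors, and the metallothioneins Mt1 and Mt2A. They had less for 4 of 12 collagen chains, 5 of 20 keratocyte and stromal secreted genes, and the secreted or membrane proteins Pla2g2a, Slurp1 and Lypd2. With limma on log2(FPKM + 1), 279 of 6112 genes were called at an adjusted p below 0.05 and a log2 difference beyond 1, which is 4.56% of the genes tested. Of these, 195 genes (3.19%) were higher and 84 genes (1.37%) were lower in SF/HA, so that 69.9% of the calls were rises. Without both libraries that stood apart, 230 genes were higher and 83 lower, and 86 of the 115 called genes named by rule kept their call. The 29 that lost it included Ccl2, Ccl4, Cxcl2, Nfkbia, Cebpb, Srgn, Ccr7, RT1-DMb, Defb14, Mmp13, Postn, Kera and Col1a1. They also included Krt6a, Krt15, Krt17, Cnfn, Sbsn, Tgm2, Muc20, Tkt, Pkm, Ccnd1 and Trib3. The others were Isca2-ps1, Krtap13-2, Mir205, U2 and the U6 gene that fell. The median log2 difference over all tested genes was 0.00301. Where libraries of the groups are said not to overlap, the share of such genes over all tested genes was not counted. Because 1 FPKM is added before the logarithm, differences of genes near or below 1 FPKM are understated. In bulk tissue, fewer cells of a type and less RNA per cell cannot be told apart.

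**Figure D1:**
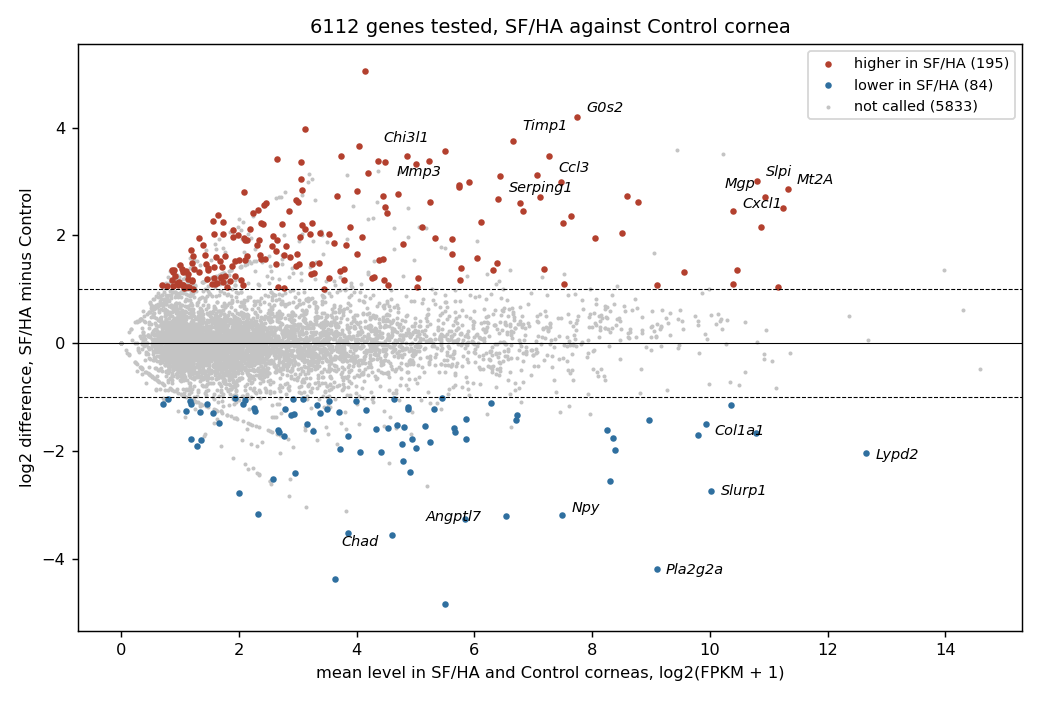
Each point is 1 of 6112 tested genes, with its mean level over SF/HA and Control corneas on the x axis, as log2(FPKM + 1), and the log2 difference of SF/HA minus Control on the y axis. Dashed lines mark differences of 1 and -1, and the 195 higher and 84 lower genes are coloured, with rises from G0s2 to Mgp at moderate to high levels and Pla2g2a among the deepest falls.

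The largest rises among called genes with at least 5 FPKM in the higher group included G0s2, an inhibitor of the triglyceride lipase of lipid droplets, which had 183, 812 and 237 FPKM in SF/HA corneas, against 15.9, 19.2 and 16 FPKM in Control corneas. Every SF/HA library lay above every Control library, which the naming rule required of these largest rises. For G0s2, SF/HA replicate 2 was far above the other SF/HA libraries (log2 difference 4.2 ± 0.61 (SE), adjusted p = 0.00329). Without SF/HA replicate 2 the difference was 3.54. Timp1, an inhibitor of matrix metalloproteinases, had 127, 203 and 233 FPKM in SF/HA corneas, against 14.9, 10.8 and 12.2 FPKM in Control corneas (log2 difference 3.76 ± 0.29 (SE), adjusted p = 0.000101). Chi3l1, a secreted chitinase-like protein of inflamed tissue, had 73.5, 91.6 and 82 FPKM in SF/HA corneas, against 6.7, 5.09 and 6.41 FPKM in Control corneas (log2 difference 3.56 ± 0.27 (SE), adjusted p = 9.1e-05). Its SF/HA libraries lay close together and more than 10-fold above Control in the means. In the deposited coordinates (build mRatBN7.2, per the submitters' processing notes) these genes lie at chr13:104806156-104807451 for G0s2, chrX:1212972-1217664 for Timp1 and chr13:45641802-45649787 for Chi3l1. The other large rises were Cfd, Ccl3, C1qc, Lyz2, Tyrobp and Mmp3, described below with their groups, and the small nuclear or nucleolar RNAs U8, U6 and U2. Those RNAs rest on very few reads, with 3, 3 and 3 reads in SF/HA corneas, against 0, 0 and 0 reads in Control corneas for U8, and no fold is given.

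The deepest fall of a protein-coding gene was in Pla2g2a, a secreted phospholipase that kills bacteria, at chr5:151076442-151079014. It had 67.5, 59.2 and 28.4 FPKM in SF/HA corneas, against 1694, 425 and 1005 FPKM in Control corneas. The Control libraries differed among themselves by about 4-fold (log2 difference -4.18 ± 0.52 (SE), adjusted p = 0.00171). Npy, neuropeptide Y, which is known from sympathetic nerves, had 67.1, 21.1 and 25 FPKM in SF/HA corneas, against 214, 431 and 318 FPKM in Control corneas (log2 difference -3.19 ± 0.41 (SE), adjusted p = 0.00176). Slurp1, a secreted Ly6 protein of the ocular surface known to damp NF-kB signalling, had 469, 192 and 183 FPKM in SF/HA corneas, against 1118, 2448 and 1847 FPKM in Control corneas. Control replicate 1 was the lowest of the Control libraries for Slurp1 (log2 difference -2.75 ± 0.44 (SE), adjusted p = 0.00533). Chad and Angptl7 of the stroma and the epithelial keratin Krt75 are described with their groups. Falls of the keratin-associated Krtap7-1 (0, 1 and 1 reads in SF/HA corneas, against 6, 13 and 20 reads in Control corneas), Krtap13-2 (0, 1 and 3 reads in SF/HA corneas, against 11, 11 and 6 reads in Control corneas), Isca2-ps1 (0, 0 and 3 reads in SF/HA corneas, against 5, 5 and 7 reads in Control corneas), AABR07070225.1 (0, 0 and 0 reads in SF/HA corneas, against 1, 2 and 2 reads in Control corneas), Mir205 (0, 0 and 2 reads in SF/HA corneas, against 3, 12 and 7 reads in Control corneas) and a second U6 gene rest on few reads. Isca2-ps1 was not called without SF/HA replicate 1 (adjusted p = 0.0874), SF/HA replicate 2 (adjusted p = 0.0872), Control replicate 1 (adjusted p = 0.0617), Control replicate 2 (adjusted p = 0.0629) and Control replicate 3 (adjusted p = 0.075). Krtap13-2 was not called without SF/HA replicate 1 (adjusted p = 0.0725), SF/HA replicate 2 (adjusted p = 0.0546), Control replicate 1 (adjusted p = 0.0636) and Control replicate 2 (adjusted p = 0.088). Mir205 was not called without SF/HA replicate 1 (adjusted p = 0.0536), SF/HA replicate 2 (adjusted p = 0.0566) and Control replicate 2 (adjusted p = 0.0667).

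Chemokines were among the most changed groups, of lists chosen with earlier results of these data known. Of 19 chemokine genes tested, 9 rose and 1 fell, and the median log2 difference was 1.54. Cxcl1, a neutrophil attractant, had 1559.5, 2792 and 2514 FPKM in SF/HA corneas, against 314, 466 and 455 FPKM in Control corneas. The lowest SF/HA library was above 3 times the highest Control library (log2 difference 2.45 ± 0.25 (SE), adjusted p = 0.000583). Ccl2, the main attractant of monocytes, had 2253, 2562 and 4374 FPKM in SF/HA corneas, against 546, 879 and 579.9 FPKM in Control corneas (log2 difference 2.17 ± 0.41 (SE), adjusted p = 0.0124). Its SF/HA replicate 3 was the highest and no library of the groups overlapped. Without both Control replicate 1 and SF/HA replicate 2, Ccl2 (adjusted p = 0.0532) was not called. Ccl20, which attracts CCR6-bearing dendritic and T cells, had 149, 261 and 304 FPKM in SF/HA corneas, against 18.9, 35.6 and 23.8 FPKM in Control corneas (log2 difference 3.13 ± 0.39 (SE), adjusted p = 0.00176). Ccl3, a macrophage inflammatory protein, had 112, 565 and 184 FPKM in SF/HA corneas, against 26.5, 16 and 17.1 FPKM in Control corneas. SF/HA replicate 2 was 3 to 5 times above the other SF/HA libraries (log2 difference 3.48 ± 0.64 (SE), adjusted p = 0.0107), and without it the difference was 2.83. The other SF/HA libraries were above every Control library, as the naming rule required of Ccl3.

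Cxcl2 and Cxcl3, neutrophil attractants of the same cluster as Cxcl1, had log2 differences of 2.24 ± 0.45 and 2.94 ± 0.48 (SE), with adjusted p = 0.0152 and 0.00533. Ccl7, a monocyte attractant next to Ccl2, had 206, 304 and 431 FPKM in SF/HA corneas, against 39.8, 49.8 and 25.4 FPKM in Control corneas (log2 difference 2.99 ± 0.42 (SE), adjusted p = 0.00264). Ccl19, a CCR7 ligand that guides dendritic cells, had 19, 7 and 29 reads in SF/HA corneas, against 1, 3 and 1 reads in Control corneas (log2 difference 2.66 ± 0.46 (SE), adjusted p = 0.00778). Ccl4 rested on few reads in Control corneas, with 26, 39 and 28 reads in SF/HA corneas, against 3, 5 and 13 reads in Control corneas (log2 difference 1.35 ± 0.26 (SE), adjusted p = 0.0123). Ccl4 was not called without Control replicate 2 (adjusted p = 0.0511). Without both Control replicate 1 and SF/HA replicate 2, Cxcl2 (adjusted p = 0.0686) and Ccl4 (log2 difference 0.99) were not called. The 1 chemokine that fell was Cxcl14, which resting epithelia secrete, with 10.6, 9.57 and 12.1 FPKM in SF/HA corneas, against 31.6, 36.6 and 33.1 FPKM in Control corneas. All 3 Control libraries were above 30 FPKM and all SF/HA libraries at or below 12.1 FPKM (log2 difference -1.57 ± 0.24 (SE), adjusted p = 0.00403). Summed over the chemokine list, the level was 4599 to 8285 FPKM in SF/HA and 1074 to 1592 FPKM in Control corneas. With only the 6 compared libraries in the fit, 5 of the rises were called.

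**Figure D2:**
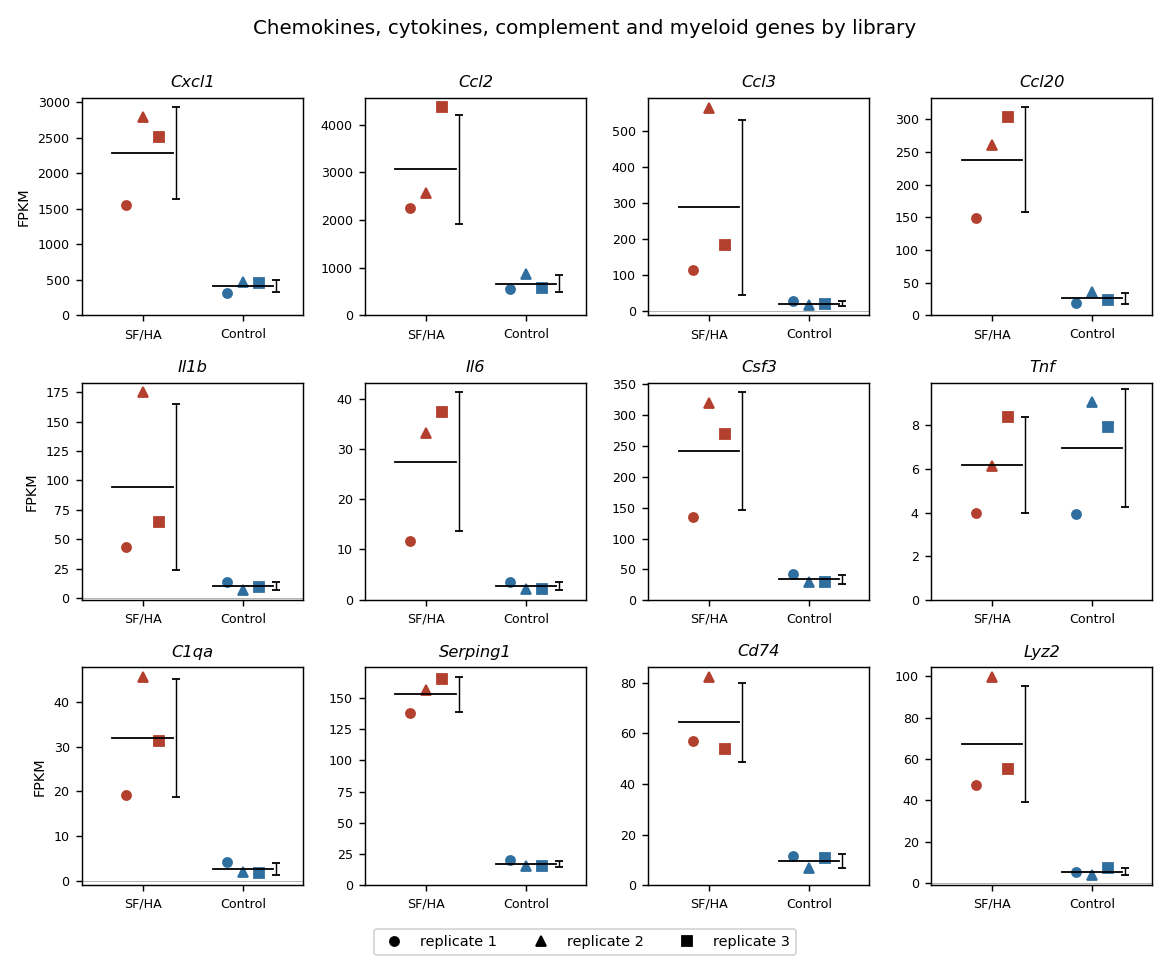
FPKM of 12 chemokine, cytokine, complement and myeloid genes in each SF/HA and Control library, with marker shapes for replicates, horizontal lines for group means and bars for ±1 SD (n = 3). Every SF/HA library lies above every Control library in all panels but Tnf, a separation that the naming rule required of Ccl3 and Lyz2. Tnf, with 4.00 to 8.37 FPKM in SF/HA and 3.93 to 9.05 FPKM in Control, overlaps.

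Several of these genes are textbook targets of the transcription factor NF-kB, so the bases upstream of some of their starts are shown. The motif searched, on both strands, was the kappaB element in the form of 3 G, any 2 bases, 3 T and 2 C. In the 250 bases before the start, 435 of 33469 RefSeq promoters of build GRCr8 (1.3%) held it, a share not limited to the genes tested. Of the called genes, 169 of 279 matched a promoter by symbol. Called genes were counted with the first promoter of each symbol, whereas the share over all promoters counted every promoter. The motif was present in 7 of 125 promoters of genes that were higher (5.6%), those of Ccl20, Cd74, Cxcl1, Cxcl2, Il6, Nfkbia and Tnfaip3, and in 2 of 44 of genes that were lower (4.55%), those of Pla2g2a and Plac8. Among genes called higher that matched a promoter, 3 of 5 chemokines, 1 of 2 cytokines and receptors and 2 of 5 NF-kB and innate signalling genes held it. Because these lists hold known NF-kB targets, their shares are no test of the motif. No share was taken for their members that were not called. All promoters shown hold the motif, and promoters of called genes without it are not shown. The sequences are the 120 bases before the start in the direction of transcription, from RefSeq, with matches in capitals. Their positions in GRCr8 are Cxcl1 at chr14:17479322-17479441 (minus strand), Cxcl2 at chr14:17467256-17467375 (minus strand), Ccl20 at chr9:91837039-91837158 (plus strand), Il6 at chr4:5894576-5894695 (minus strand), Tnfaip3 at chr1:15543980-15544099 (minus strand) and Nfkbia at chr6:78597073-78597192 (minus strand).
Cxcl1: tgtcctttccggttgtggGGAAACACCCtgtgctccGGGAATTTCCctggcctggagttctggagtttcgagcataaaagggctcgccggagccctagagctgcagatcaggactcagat
Cxcl2: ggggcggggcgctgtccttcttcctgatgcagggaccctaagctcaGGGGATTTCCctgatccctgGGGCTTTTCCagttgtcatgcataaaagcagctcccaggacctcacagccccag
Ccl20: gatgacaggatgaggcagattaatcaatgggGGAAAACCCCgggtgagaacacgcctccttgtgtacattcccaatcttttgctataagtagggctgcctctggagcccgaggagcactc
Il6: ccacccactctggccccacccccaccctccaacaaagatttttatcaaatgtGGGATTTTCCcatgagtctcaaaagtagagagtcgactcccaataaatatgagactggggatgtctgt
Tnfaip3: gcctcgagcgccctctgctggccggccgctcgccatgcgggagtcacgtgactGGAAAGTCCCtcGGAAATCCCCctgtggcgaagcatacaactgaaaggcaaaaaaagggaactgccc
Nfkbia: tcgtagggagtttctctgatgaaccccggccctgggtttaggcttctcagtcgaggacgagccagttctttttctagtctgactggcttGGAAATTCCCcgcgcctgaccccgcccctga
Matches lay between 102 and 22 bases before the start. A match is a description of these letters and says nothing of binding, and promoters without these letters may hold other forms of the element.

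Of 20 cytokines and receptors tested, 8 were called, all of them higher (median log2 difference 0.95). Il1b, the secreted form of interleukin 1 made by myeloid cells, had 43.7, 175 and 64.5 FPKM in SF/HA corneas, against 13.8, 6.87 and 9.53 FPKM in Control corneas. The groups did not overlap, and SF/HA replicate 2 was the highest (log2 difference 2.9 ± 0.53 (SE), adjusted p = 0.0105). Il6, an inducer of the acute phase response, had 11.6, 33.3 and 37.4 FPKM in SF/HA corneas, against 3.55, 2.15 and 2.21 FPKM in Control corneas (log2 difference 2.83 ± 0.42 (SE), adjusted p = 0.00372). Csf3, the growth factor that releases neutrophils from the marrow, had 135, 320.2 and 269 FPKM in SF/HA corneas, against 42.9, 30.1 and 29.6 FPKM in Control corneas. Its lowest SF/HA library was above 3 times its highest Control library (log2 difference 2.71 ± 0.43 (SE), adjusted p = 0.00512). Il10, an anti-inflammatory cytokine, had 16, 31 and 18 reads in SF/HA corneas, against 2, 0 and 7 reads in Control corneas (log2 difference 2.22 ± 0.41 (SE), adjusted p = 0.0105), and it rose beside the pro-inflammatory members. Tnfsf9, a T cell costimulator, and the interleukin 6 family member Osm rested on few reads, with 6, 12 and 15 reads in SF/HA corneas, against 1, 1 and 0 reads in Control corneas for Tnfsf9 and 7, 11 and 5 reads in SF/HA corneas, against 0, 0 and 1 reads in Control corneas for Osm. Lif, of the same family, and the decoy receptor Il1r2 had log2 differences of 1.38 and 1.37. Lif was not called without SF/HA replicate 2 (adjusted p = 0.0584), SF/HA replicate 3 (adjusted p = 0.0645), Control replicate 2 (adjusted p = 0.0721) and Control replicate 3 (adjusted p = 0.0504). Il1r2 was not called without Control replicate 2 (adjusted p = 0.0539) and Control replicate 3 (adjusted p = 0.0504).

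Tnf, tumour necrosis factor, did not pass the test, with 4.0, 6.12 and 8.37 FPKM in SF/HA corneas, against 3.93, 9.05 and 7.89 FPKM in Control corneas. The groups overlapped over almost their whole range (log2 difference -0.13 ± 0.38 (SE), adjusted p = 0.889), on 7, 8 and 21 reads in SF/HA corneas, against 5, 21 and 21 reads in Control corneas. With only the 6 compared libraries in the fit, 1 cytokine was called.

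All 23 tested genes of NF-kB and innate signalling had log2 differences above 0, and 6 of them rose (median 0.53). The adhesion molecule Vcam1, which tethers monocytes and lymphocytes, had 8.68, 9.39 and 11.5 FPKM in SF/HA corneas, against 1.87, 0.91 and 1.29 FPKM in Control corneas (log2 difference 2.21 ± 0.19 (SE), adjusted p = 0.000192). Icam1, the adhesion molecule for neutrophils, had 7.74, 13.4 and 12 FPKM in SF/HA corneas, against 1.92, 3.83 and 2.67 FPKM in Control corneas (log2 difference 1.66 ± 0.23 (SE), adjusted p = 0.00264). Tnfaip3, which encodes the NF-kB inhibitor A20, had 6.8, 10.6 and 8.12 FPKM in SF/HA corneas, against 2.17, 1.61 and 1.78 FPKM in Control corneas (log2 difference 1.72 ± 0.19 (SE), adjusted p = 0.00082). These 3 genes separated the groups without overlap, and the share of all tested genes that did so was not counted. Cebpb, a transcription factor of inflammatory genes, had 1002, 1196 and 1021 FPKM in SF/HA corneas, against 287, 477 and 564 FPKM in Control corneas (log2 difference 1.33 ± 0.26 (SE), adjusted p = 0.0142). Nfkbia, the inhibitor IkB-alpha, had 1646, 2088 and 1687 FPKM in SF/HA corneas, against 506, 1061 and 1107 FPKM in Control corneas (log2 difference 1.09 ± 0.26 (SE), adjusted p = 0.032), and Ier3, an early response gene, had a log2 difference of 1.08. Nfkbia was not called without SF/HA replicate 1 (adjusted p = 0.0596), SF/HA replicate 2 (adjusted p = 0.0909), SF/HA replicate 3 (adjusted p = 0.0702) and Control replicate 1 (log2 difference 0.73). Ier3 was not called without SF/HA replicate 2 (log2 difference 0.996) and Control replicate 2 (log2 difference 0.98). Without both Control replicate 1 and SF/HA replicate 2, Cebpb (log2 difference 0.96) and Nfkbia (log2 difference 0.62) were not called. Under quantile normalization 3 of the 6 were called. Interferon response genes had 2 rises among 21 tested and a median of -0.07. They were Gbp2, an interferon-inducible GTPase, with 14.8, 12.9 and 14.7 FPKM in SF/HA corneas, against 4.42, 4.64 and 4.05 FPKM in Control corneas (log2 difference 1.5 ± 0.25 (SE), adjusted p = 0.00677), and Ifitm3, an antiviral membrane protein (log2 difference 1.36 ± 0.25 (SE), adjusted p = 0.0104). Without Control replicate 1 the list had 2 rises and 2 falls.

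Complement genes had the highest share of calls of any list, among lists chosen with earlier results of these data known. Of 12 tested, 9 were called, all of them higher, with a median log2 difference of 1.81. Serping1, the inhibitor of the C1 proteases, had 138, 157 and 165 FPKM in SF/HA corneas, against 19.9, 15.3 and 15.7 FPKM in Control corneas. The SF/HA libraries spanned a narrow range at 9.03 times the Control mean (log2 difference 3.11 ± 0.24 (SE), adjusted p = 0.000101). C1s, one of these proteases, had 34.2, 36.8 and 39.6 FPKM in SF/HA corneas, against 6.24, 4.91 and 5.49 FPKM in Control corneas (log2 difference 2.53 ± 0.26 (SE), adjusted p = 0.000557). The second, C1r, had 33.2, 30.1 and 30.5 FPKM in SF/HA corneas, against 15.6, 6.9 and 8.94 FPKM in Control corneas (log2 difference 1.56 ± 0.31 (SE), adjusted p = 0.0156). C1r was not called without Control replicate 2 (adjusted p = 0.0607) and Control replicate 3 (adjusted p = 0.055). C1qa, C1qb and C1qc encode the chains of C1q, which macrophages make. They were covered by 37, 66 and 87 reads in SF/HA corneas, against 6, 5 and 5 reads in Control corneas for C1qa, and had log2 differences of 3.17, 2.03 and 3.47. C1qc was named by a rule that required no overlap, and C1qa and C1qb also separated the groups without overlap. Cfd, the protease that starts the alternative pathway, had 29, 36 and 49 reads in SF/HA corneas, against 2, 0 and 6 reads in Control corneas (log2 difference 3.65 ± 0.46 (SE), adjusted p = 0.00176). Without Control replicate 2, the library with 0 reads, its difference was 3.04. C4a and Cfb, with log2 differences of 1.6 and 1.33, were below 6 FPKM in every library, and C4a has a close paralogue whose reads may be shared. Summed over the list, the level was 303 to 393 FPKM in SF/HA and 79.3 to 88 FPKM in Control corneas. With only the 6 compared libraries in the fit, 5 of the rises were called.

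Macrophage markers overlap this list in the C1q chains. Of 15 tested, 9 rose and 1 fell (median 2.03). Tyrobp, a signalling adaptor of myeloid cells, had 25.2, 54.1 and 30.6 FPKM in SF/HA corneas, against 4.27, 1.76 and 1.79 FPKM in Control corneas (log2 difference 3.38 ± 0.32 (SE), adjusted p = 0.000327). Lyz2, lysozyme of macrophages and neutrophils, had 47.2, 99.5 and 55.2 FPKM in SF/HA corneas, against 5.05, 3.83 and 7.06 FPKM in Control corneas (log2 difference 3.39 ± 0.28 (SE), adjusted p = 0.000138). Both were several-fold above Control in all SF/HA libraries, with SF/HA replicate 2 highest. Aif1, Fcer1g, Ms4a7 and Spp1, further myeloid genes, had log2 differences of 2.46, 2.13, 1.33 and 2.22. Spp1 was not called without SF/HA replicate 1 (adjusted p = 0.062), SF/HA replicate 3 (adjusted p = 0.066), Control replicate 2 (adjusted p = 0.0644) and Control replicate 3 (adjusted p = 0.0563). Without SF/HA replicate 2 the difference of Spp1 was 2.83. Cd68, a lysosomal protein of macrophages that other cells also make, had 55.7, 74.5 and 77.1 FPKM in SF/HA corneas, against 48.1, 79.1 and 69.5 FPKM in Control corneas and did not pass the test (log2 difference 0.09 ± 0.22 (SE), adjusted p = 0.859). Arg1, an arginine-degrading enzyme, was the member that fell, with 5.65, 2.73 and 5.11 FPKM in SF/HA corneas, against 19.2, 22.3 and 17.9 FPKM in Control corneas. Its groups were far apart (log2 difference -1.96 ± 0.25 (SE), adjusted p = 0.00176). Among members below the level filter, Mrc1, the mannose receptor of resident macrophages, had 12, 41 and 15 reads in SF/HA corneas, against 0, 0 and 2 reads in Control corneas, and Csf1r, the receptor that defines the lineage, had 4, 6 and 7 reads in SF/HA corneas, against 0, 0 and 2 reads in Control corneas. The summed level of the 20 markers in the table was 313 to 516 FPKM in SF/HA and 152 to 230.2 FPKM in Control corneas, and the part of a changed number of macrophages in the other results was not tested.

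Of 9 MHC class II genes and dendritic cell markers tested, 6 rose (median 1.33). These were 5 of 7 genes of class II antigen presentation, and Ccr7 of the dendritic markers Ccr7 and Cd83. Cd74, the invariant chain, had 57.1, 82.3 and 53.6 FPKM in SF/HA corneas, against 11.6, 6.6 and 10.7 FPKM in Control corneas (log2 difference 2.63 ± 0.29 (SE), adjusted p = 0.00082). RT1-Da, a rat class II alpha chain, had 18.6, 28.2 and 22.2 FPKM in SF/HA corneas, against 5.56, 3.26 and 4.44 FPKM in Control corneas (log2 difference 2.15 ± 0.25 (SE), adjusted p = 0.00118). All SF/HA libraries were above all Control libraries in both. RT1-Ba, RT1-Db1 and RT1-DMb, other chains of the same family, had log2 differences of 1.97, 1.81 and 1.33. RT1 genes resemble each other, and how the authors' counting split reads between them is not given in the sources used here. Ccr7, the receptor of migrating dendritic cells, had 10, 19 and 18 reads in SF/HA corneas, against 4, 3 and 1 reads in Control corneas (log2 difference 1.18 ± 0.29 (SE), adjusted p = 0.0422). Ccr7 was not called without SF/HA replicate 2 (adjusted p = 0.105), SF/HA replicate 3 (adjusted p = 0.0761), Control replicate 2 (adjusted p = 0.115) and Control replicate 3 (adjusted p = 0.126). Without both Control replicate 1 and SF/HA replicate 2, RT1-DMb (adjusted p = 0.0575) and Ccr7 (adjusted p = 0.0519) were not called. With a pseudocount of 5 in place of 1, 3 members were called. The class II regulator Ciita and the dendritic growth factor receptor Flt3 had 0 reads in all 6 libraries.

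Neutrophil genes gave large but uneven values. S100a8 and S100a9, the calprotectin subunits that make up much of neutrophil cytosol and are also induced in stressed epithelium, did not pass the test. S100a8 had 256, 3298 and 432 FPKM in SF/HA corneas, against 75.1, 43.4 and 62.5 FPKM in Control corneas. All SF/HA libraries were above Control, and SF/HA replicate 2 was several times above the other SF/HA libraries (log2 difference 3.58 ± 1.32 (SE), adjusted p = 0.143). Without SF/HA replicate 2 the difference of S100a8 was 2.48 (adjusted p = 0.339). S100a9 had 534, 5395 and 886 FPKM in SF/HA corneas, against 123, 111 and 124 FPKM in Control corneas (log2 difference 3.51 ± 0.99 (SE), adjusted p = 0.0642), and without SF/HA replicate 2 the difference was 2.52 (adjusted p = 0.158). Voom on the reads recovered from FPKM called S100a9, with a log2 difference of 3.51 and adjusted p = 0.0145. Srgn, a granule proteoglycan of many leukocytes, and the decoy receptor Il1r2 were the 2 members of 6 tested that rose. Srgn was not called without SF/HA replicate 2 (adjusted p = 0.0514) and Control replicate 2 (adjusted p = 0.0686). Of the neutrophil-defining genes, Mpo, Cxcr1, Retnlg, Fpr1 and Mmp8 had 0 reads in all 6 libraries. Csf3r, the receptor for Csf3, had 3, 5 and 2 reads in SF/HA corneas, against 0, 0 and 0 reads in Control corneas. The summed level of the 17 neutrophil genes in the table was 817 to 8874 FPKM in SF/HA and 172 to 208 FPKM in Control corneas. Most of it was S100a8 and S100a9 in both groups, and the part of neutrophil numbers in the other results was not tested.

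Among secreted antimicrobial and protective proteins 5 of 18 tested rose and 2 fell, and members of both directions were abundant. Slpi, a secreted inhibitor of neutrophil elastase, had 1672, 4548 and 3297 FPKM in SF/HA corneas, against 245, 494 and 401 FPKM in Control corneas (log2 difference 3.0 ± 0.39 (SE), adjusted p = 0.00185), a difference of 2.4 without both Control replicate 1 and SF/HA replicate 2. Its lowest SF/HA library was above 3 times the highest Control library. Ly6d, a membrane protein of stratified epithelium, had 93.7, 171 and 54.9 FPKM in SF/HA corneas, against 8.22, 12 and 13.8 FPKM in Control corneas (log2 difference 3.0 ± 0.45 (SE), adjusted p = 0.00381), a difference of 2.39 without the same libraries. Defb14, a beta-defensin, had 65.8, 285 and 219 FPKM in SF/HA corneas, against 23.1, 28.1 and 26.1 FPKM in Control corneas (log2 difference 2.6 ± 0.66 (SE), adjusted p = 0.0449). SF/HA replicate 1 was the lowest of its group by about 3-fold, and without it the difference was 3.23. Defb14 was not called without SF/HA replicate 2 (adjusted p = 0.125), SF/HA replicate 3 (adjusted p = 0.128), Control replicate 1 (adjusted p = 0.0752), Control replicate 2 (adjusted p = 0.107) and Control replicate 3 (adjusted p = 0.105). S100a7a, psoriasin, had 18.9, 15.9 and 19.7 FPKM in SF/HA corneas, against 4.79, 3.94 and 4.01 FPKM in Control corneas (log2 difference 1.87 ± 0.24 (SE), adjusted p = 0.00176). The fall of Lypd2, a small Ly6 protein and the most abundant named member, was seen as 3669.6, 1487 and 2497 FPKM in SF/HA corneas, against 6032, 12935 and 12114 FPKM in Control corneas. Control replicate 1 was the lowest of the Control libraries and still above all SF/HA libraries (log2 difference -2.04 ± 0.38 (SE), adjusted p = 0.0107). Pla2g2a, given above, was the other member that fell. With only the 6 compared libraries in the fit, 3 rises and 1 fall were called.

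Stromal genes were lower in part. Of 20 keratocyte and stromal secreted genes tested, 5 fell and 1 rose, with a median log2 difference of -0.29. Angptl7, an abundant secreted protein of keratocytes, had 13.2, 22.6 and 11.8 FPKM in SF/HA corneas, against 289, 109 and 103 FPKM in Control corneas. Control replicate 1 was more than 2 times above the other Control libraries (log2 difference -3.2 ± 0.43 (SE), adjusted p = 0.00218). Chad, a matrix protein of cartilage and cornea, had 5.97, 1.5 and 1.56 FPKM in SF/HA corneas, against 67.7, 29.5 and 33.9 FPKM in Control corneas (log2 difference -3.56 ± 0.47 (SE), adjusted p = 0.00205), with a difference of -2.95 without both Control replicate 1 and SF/HA replicate 2. Mfap4, a microfibril-associated protein, had 131, 123 and 116 FPKM in SF/HA corneas, against 922, 327 and 392 FPKM in Control corneas (log2 difference -1.98 ± 0.34 (SE), adjusted p = 0.00806). Kera, whose values are given above, had a log2 difference of -1.61 ± 0.38 (SE), adjusted p = 0.0311. Kera was not called without SF/HA replicate 1 (adjusted p = 0.0728), SF/HA replicate 2 (adjusted p = 0.0667) and SF/HA replicate 3 (adjusted p = 0.0899). It was also not called without both Control replicate 1 and SF/HA replicate 2 (log2 difference -1.21, adjusted p = 0.0575). Lum, lumican, the most abundant keratocyte proteoglycan here, had 814, 786 and 944 FPKM in SF/HA corneas, against 861, 379 and 518 FPKM in Control corneas and did not pass the test (log2 difference 0.61 ± 0.29 (SE), adjusted p = 0.251). Apod, a lipid carrier that binds arachidonic acid, was the member that rose, with 791, 636 and 829 FPKM in SF/HA corneas, against 194, 88.3 and 102 FPKM in Control corneas (log2 difference 2.62 ± 0.34 (SE), adjusted p = 0.00185). Its SF/HA libraries were all above 3 times the highest Control library. The summed level of the list was 2372 to 2758 FPKM in SF/HA and 1915 to 5416 FPKM in Control corneas. Without Control replicate 1, which holds the high value, 5 members rose, 5 fell, and the median was 0.07.

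Of 12 collagen chains tested, 4 were called, all of them lower (median -0.80). Col1a1, the main fibrillar collagen of the stroma, had 494, 463 and 438 FPKM in SF/HA corneas, against 2542, 909.9 and 990.0 FPKM in Control corneas. The 3 SF/HA libraries lay within a narrow range below all Control libraries, and Control replicate 1 was the highest by more than 2-fold (log2 difference -1.5 ± 0.36 (SE), adjusted p = 0.0339). The chains of the microfibrillar collagen VI, Col6a1, Col6a2 and Col6a3, had log2 differences of -1.78 ± 0.34, -1.87 ± 0.36 and -1.63 ± 0.37 (SE), with adjusted p = 0.0122, 0.0122 and 0.0278. Col6a1 had 26.7, 21.9 and 21.1 FPKM in SF/HA corneas, against 152, 55.4 and 64.7 FPKM in Control corneas. Col1a1 was not called without SF/HA replicate 1 (adjusted p = 0.069), SF/HA replicate 2 (adjusted p = 0.0797) and SF/HA replicate 3 (adjusted p = 0.0945). It was also not called without both Control replicate 1 and SF/HA replicate 2 (log2 difference -1.03, adjusted p = 0.0542). Col6a3 was not called without SF/HA replicate 1 (adjusted p = 0.0529), SF/HA replicate 2 (adjusted p = 0.0703) and SF/HA replicate 3 (adjusted p = 0.0836). With SF/HA replicate 1, 2 or 3 left out, 2 chains were called in each case, and with only the 6 compared libraries in the limma fit 0 were, against 7 falls and 1 rise with voom. Together the collagen chains summed to 599 to 661 FPKM in SF/HA and 1175 to 3281 FPKM in Control corneas.

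Genes of myofibroblasts and wound matrix were called in 5 of 18 members tested, all of them higher (median 0.66). Tagln, an actin-binding protein of contractile cells, had 13.3, 5.62 and 24.1 FPKM in SF/HA corneas, against 0.251, 0.275 and 0.36 FPKM in Control corneas. Control libraries held 1, 2 and 3 reads, and all SF/HA libraries were higher, with SF/HA replicate 3 the highest (log2 difference 3.37 ± 0.47 (SE), adjusted p = 0.00264). Acta2, smooth muscle actin and the defining gene of myofibroblasts, had 5.87, 3.08 and 17.6 FPKM in SF/HA corneas, against 1.26, 0.867 and 0.984 FPKM in Control corneas. The SF/HA libraries differed by more than 5-fold among themselves but did not overlap with Control (log2 difference 1.99 ± 0.50 (SE), adjusted p = 0.0428). Without SF/HA replicate 3 its difference was 1.38. Acta2 was not called without SF/HA replicate 1 (adjusted p = 0.0733), SF/HA replicate 3 (adjusted p = 0.0849), Control replicate 1 (adjusted p = 0.0578), Control replicate 2 (adjusted p = 0.121) and Control replicate 3 (adjusted p = 0.105). Tpm2, a tropomyosin, had 11.5, 13 and 19.7 FPKM in SF/HA corneas, against 2.25, 1.98 and 2.59 FPKM in Control corneas (log2 difference 2.23 ± 0.19 (SE), adjusted p = 0.000185). Tpm1, of the same family, and Postn, periostin of wound matrix, had log2 differences of 1.24 and 1.2. Postn was not called without SF/HA replicate 2 (adjusted p = 0.069), SF/HA replicate 3 (adjusted p = 0.113), Control replicate 2 (adjusted p = 0.144) and Control replicate 3 (adjusted p = 0.0973). The count of rises was 8 without Control replicate 1, and 3 without SF/HA replicate 3, without Control replicate 2 and without Control replicate 3. It was also 3 with the replicate number as a block, and 2 with only the 6 compared libraries.

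Of 19 matrix proteases and inhibitors tested, 6 were called, all of them higher (median 0.57). Mmp3, stromelysin 1, had 33.5, 45 and 41.4 FPKM in SF/HA corneas, against 3.04, 2.92 and 2.83 FPKM in Control corneas (log2 difference 3.37 ± 0.21 (SE), adjusted p = 4.2e-05). Replicates of each group lay close together. Plau, the urokinase plasminogen activator, had 52.9, 71.7 and 63.7 FPKM in SF/HA corneas, against 15.4, 18.8 and 12.6 FPKM in Control corneas (log2 difference 1.95 ± 0.29 (SE), adjusted p = 0.00372), and its receptor Plaur had 22.9, 42.2 and 25 FPKM in SF/HA corneas, against 7.2, 11.8 and 9.48 FPKM in Control corneas (log2 difference 1.54 ± 0.26 (SE), adjusted p = 0.00741). Mmp13, a collagenase, and Mmp19 were below 8 FPKM in every SF/HA and Control library and had log2 differences of 1.43 and 1.17. Mmp13 was not called without SF/HA replicate 1 (adjusted p = 0.12), SF/HA replicate 2 (adjusted p = 0.0826), SF/HA replicate 3 (adjusted p = 0.0686), Control replicate 1 (adjusted p = 0.0752), Control replicate 2 (adjusted p = 0.121) and Control replicate 3 (adjusted p = 0.0838). Mmp19 was not called without SF/HA replicate 2 (adjusted p = 0.0601), SF/HA replicate 3 (adjusted p = 0.12), Control replicate 2 (adjusted p = 0.117) and Control replicate 3 (adjusted p = 0.126). Mmp9, the gelatinase of corneal wounds, had 0, 14 and 9 reads in SF/HA corneas, against 1, 4 and 4 reads in Control corneas and did not pass the test (log2 difference 0.57 ± 0.65 (SE), adjusted p = 0.662). With only the 6 compared libraries in the fit, 3 rises were called.

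**Figure D3:**
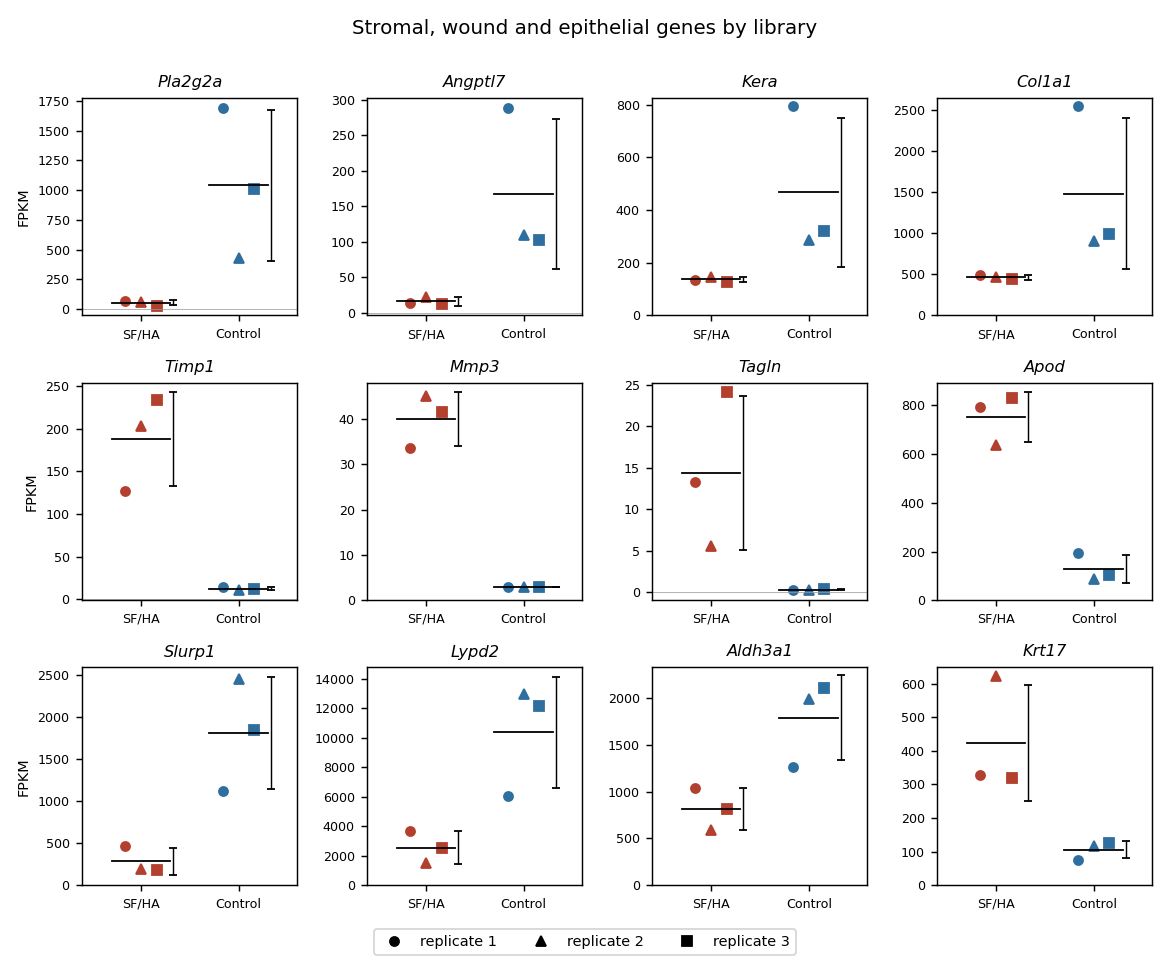
FPKM of 12 stromal, wound and epithelial genes in each SF/HA and Control library, drawn with marker shapes for replicates, lines for group means and bars for ±1 SD (n = 3). Timp1, Mmp3, Tagln, Apod and Krt17 are higher and the remaining genes lower in SF/HA, and Control replicate 1 is the highest Control library for Pla2g2a, Angptl7, Kera and Col1a1 and the lowest for Slurp1, Lypd2 and Aldh3a1.

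In the epithelium, 1 of 8 keratins typical of cornea and limbus was called. Krt15, a keratin of basal and limbal cells, had 39, 88.1 and 39 FPKM in SF/HA corneas, against 6.33, 9.81 and 18.9 FPKM in Control corneas (log2 difference 2.17 ± 0.46 (SE), adjusted p = 0.0203). Krt15 was not called without SF/HA replicate 2 (adjusted p = 0.0623) and Control replicate 2 (adjusted p = 0.0696). Krt12 did not pass the test (log2 difference -0.83 ± 0.31 (SE), adjusted p = 0.148), although without Control replicate 1 it did, with adjusted p = 0.0233. These keratins summed to 2346 to 3129 FPKM in SF/HA and 2916 to 5368 FPKM in Control corneas. With limma 0 of 15 epithelial transcription factors tested were called (median 0.20; 3 at an unadjusted p below 0.05, and 0 calls with voom), and Pax6, the regulator of corneal identity, had 7.42, 4.03 and 5.67 FPKM in SF/HA corneas, against 7.98, 12.1 and 11.1 FPKM in Control corneas (log2 difference -0.78 ± 0.27 (SE), adjusted p = 0.119). Without Control replicate 1, 1 factor was called higher, and without SF/HA replicate 1, 1 was called lower.

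Genes of stressed and cornifying epithelium went both ways, with 5 rises and 3 falls among 22 tested. Krt17, a keratin of wounded epithelium, had 329, 622 and 319.8 FPKM in SF/HA corneas, against 75.8, 117 and 124 FPKM in Control corneas (log2 difference 1.95 ± 0.41 (SE), adjusted p = 0.0187). Cnfn, cornifelin of the cornified envelope, had 92, 216 and 129.8 FPKM in SF/HA corneas, against 24.9, 13.1 and 26.6 FPKM in Control corneas (log2 difference 2.68 ± 0.52 (SE), adjusted p = 0.0132). Sbsn, suprabasin, and Krt6a, a keratin of activated epithelium, had log2 differences of 1.93 and 1.39. Krt17 was not called without SF/HA replicate 2 (adjusted p = 0.0601) and Control replicate 2 (adjusted p = 0.0507). Cnfn was not called without Control replicate 2 (adjusted p = 0.0563). Sbsn was not called without Control replicate 2 (adjusted p = 0.0607). Krt6a was not called without SF/HA replicate 1 (adjusted p = 0.0506), SF/HA replicate 2 (adjusted p = 0.0857), Control replicate 1 (adjusted p = 0.0575), Control replicate 2 (adjusted p = 0.075) and Control replicate 3 (adjusted p = 0.075). Without both Control replicate 1 and SF/HA replicate 2, Cnfn (adjusted p = 0.0541), Sbsn (adjusted p = 0.0581) and Krt17 (adjusted p = 0.0922) were not called. Krt6a (adjusted p = 0.117) and Tgm2 (log2 difference -0.82) were not called in that fit either. The table holds another gene ID named Krt6a, with 33.8, 33.5 and 28.8 FPKM in SF/HA corneas, against 15.3, 265 and 210.0 FPKM in Control corneas, which was not called, and reads of these near-identical copies may be shared. S100a7a, given above, also rose. The falls were in Krt75, a keratin known from hair follicles, with 10, 5.28 and 10.5 FPKM in SF/HA corneas, against 31.4, 60.3 and 56.8 FPKM in Control corneas (log2 difference -2.39 ± 0.34 (SE), adjusted p = 0.00286), in the envelope scaffold Evpl (log2 difference -1.24 ± 0.23 (SE), adjusted p = 0.011) and in the crosslinking enzyme Tgm2 (log2 difference -1.04 ± 0.21 (SE), adjusted p = 0.0172). Tgm2 was not called without SF/HA replicate 2 (log2 difference -0.79) and Control replicate 2 (adjusted p = 0.0667). Without Control replicate 2 the list had 1 rise and 2 falls, and without SF/HA replicate 2, 3 and 2.

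Surface genes of the epithelium fell in 4 of 14 members tested of a list of membrane mucins, tetraspanins and zinc importers with related channel and oxidase genes (median -0.86). Slc39a4, the zinc importer ZIP4, had 27.6, 27.4 and 36.8 FPKM in SF/HA corneas, against 70.5, 96.2 and 81.9 FPKM in Control corneas (log2 difference -1.41 ± 0.21 (SE), adjusted p = 0.00348). Duoxa2, the maturation factor of the peroxide-making oxidase Duox2, had 25.7, 15.5 and 32 FPKM in SF/HA corneas, against 67.7, 68.8 and 90.5 FPKM in Control corneas (log2 difference -1.64 ± 0.26 (SE), adjusted p = 0.00474). Muc20, a membrane mucin, and Fxyd4, a regulator of the sodium pump, had log2 differences of -1.55 and -1.78. In all 4 genes every SF/HA library was below every Control library, a separation whose share over all tested genes was not counted. Muc20 was not called without SF/HA replicate 1 (adjusted p = 0.0888), SF/HA replicate 2 (adjusted p = 0.0729), Control replicate 2 (adjusted p = 0.113) and Control replicate 3 (adjusted p = 0.109). Fxyd4 was not called without Control replicate 2 (adjusted p = 0.0511). Without Control replicate 2 the count of falls was 2, and with only the 6 compared libraries in the fit it was 1. Slc39a2, another zinc importer that is outside this list, was called higher in SF/HA. Slc39a2 was not called without SF/HA replicate 2 (adjusted p = 0.0825), SF/HA replicate 3 (adjusted p = 0.126), Control replicate 1 (adjusted p = 0.0793) and Control replicate 2 (adjusted p = 0.137). Among 20 genes of epithelial junctions 1 was called, a share near the 4.56% called over all tested genes. It was Cldn23, a claudin, with 57.3, 37.4 and 75 FPKM in SF/HA corneas, against 113, 170.1 and 168 FPKM in Control corneas (log2 difference -1.43 ± 0.29 (SE), adjusted p = 0.0173). Cldn23 was not called without Control replicate 2 (adjusted p = 0.0667) and Control replicate 3 (adjusted p = 0.0622). Without Control replicate 1, 1 junction gene rose and 2 fell. Cldn4, the most abundant of this list, did not pass the test (log2 difference 0.12 ± 0.25 (SE), adjusted p = 0.829).

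Antioxidant and metal-binding genes rose beside a fall of corneal crystallin enzymes, with 4 rises and 2 falls among 24 tested. Mt2A, a metallothionein that binds zinc and copper, had 3419, 4319.7 and 5729 FPKM in SF/HA corneas, against 1001, 408 and 536 FPKM in Control corneas (log2 difference 2.86 ± 0.33 (SE), adjusted p = 0.00112). Mt1, its paralogue, had 279.6, 362 and 359.6 FPKM in SF/HA corneas, against 81.1, 49.2 and 65.4 FPKM in Control corneas (log2 difference 2.36 ± 0.22 (SE), adjusted p = 0.000321). The groups did not overlap for either gene. Sod2, the mitochondrial superoxide dismutase, had 119, 272 and 187 FPKM in SF/HA corneas, against 27.5, 37 and 34.1 FPKM in Control corneas (log2 difference 2.45 ± 0.36 (SE), adjusted p = 0.00336), and Clu, clusterin, a secreted chaperone, had 32.5, 34.1 and 44.3 FPKM in SF/HA corneas, against 5.92, 4.17 and 3.98 FPKM in Control corneas (log2 difference 2.74 ± 0.25 (SE), adjusted p = 0.000262). All 4 kept their call in each of the 6 fits that left out 1 library. Aldh3a1 and Tkt are soluble enzymes stored in large amounts in corneal cells. Aldh3a1 had 1044, 591 and 814 FPKM in SF/HA corneas, against 1270.4, 1999 and 2111 FPKM in Control corneas (log2 difference -1.14 ± 0.29 (SE), adjusted p = 0.0458), and Tkt had 64.2, 38.9 and 43.8 FPKM in SF/HA corneas, against 108, 105 and 100.1 FPKM in Control corneas (log2 difference -1.11 ± 0.23 (SE), adjusted p = 0.0176). Aldh3a1 was not called without SF/HA replicate 2 (adjusted p = 0.128), SF/HA replicate 3 (adjusted p = 0.106), Control replicate 2 (adjusted p = 0.147) and Control replicate 3 (adjusted p = 0.134). Tkt was not called without SF/HA replicate 2 (adjusted p = 0.0556), SF/HA replicate 3 (adjusted p = 0.0607) and Control replicate 2 (adjusted p = 0.0592).

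Of 10 genes of lipid storage and transport, 4 were called, all of them higher (median 0.87). Beside G0s2 and Apod they were Angptl4, an inhibitor of lipoprotein lipase, with 5.55, 6.78 and 8.58 FPKM in SF/HA corneas, against 1.66, 1.09 and 0.634 FPKM in Control corneas (log2 difference 1.92 ± 0.24 (SE), adjusted p = 0.00176), and Plin2, a coat protein of lipid droplets (log2 difference 1.52 ± 0.26 (SE), adjusted p = 0.00716). Apoe, the most abundant member, had a log2 difference of 0.52 and did not pass the test. With a pseudocount of 5, 2 were called. Hypoxia and glycolysis genes had 2 rises among 17 tested, the mTOR inhibitor Ddit4, with 108, 148 and 109 FPKM in SF/HA corneas, against 34.1, 41.7 and 52.8 FPKM in Control corneas (log2 difference 1.49 ± 0.22 (SE), adjusted p = 0.00374), and pyruvate kinase Pkm (log2 difference 1.09 ± 0.22 (SE), adjusted p = 0.0174). Pkm was not called without SF/HA replicate 2 (adjusted p = 0.0546), Control replicate 2 (adjusted p = 0.0511) and Control replicate 3 (adjusted p = 0.0517). Vegfa, the vascular growth factor that drives corneal vessels, had 7.03, 17.4 and 13.3 FPKM in SF/HA corneas, against 7.64, 3.46 and 3.66 FPKM in Control corneas. It did not pass the test; SF/HA replicate 1 was below Control replicate 1 (log2 difference 1.19 ± 0.34 (SE), adjusted p = 0.0695), and it did without either of those libraries, with adjusted p = 0.0251 without SF/HA replicate 1 and 0.0237 without Control replicate 1.

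**Figure D4:**
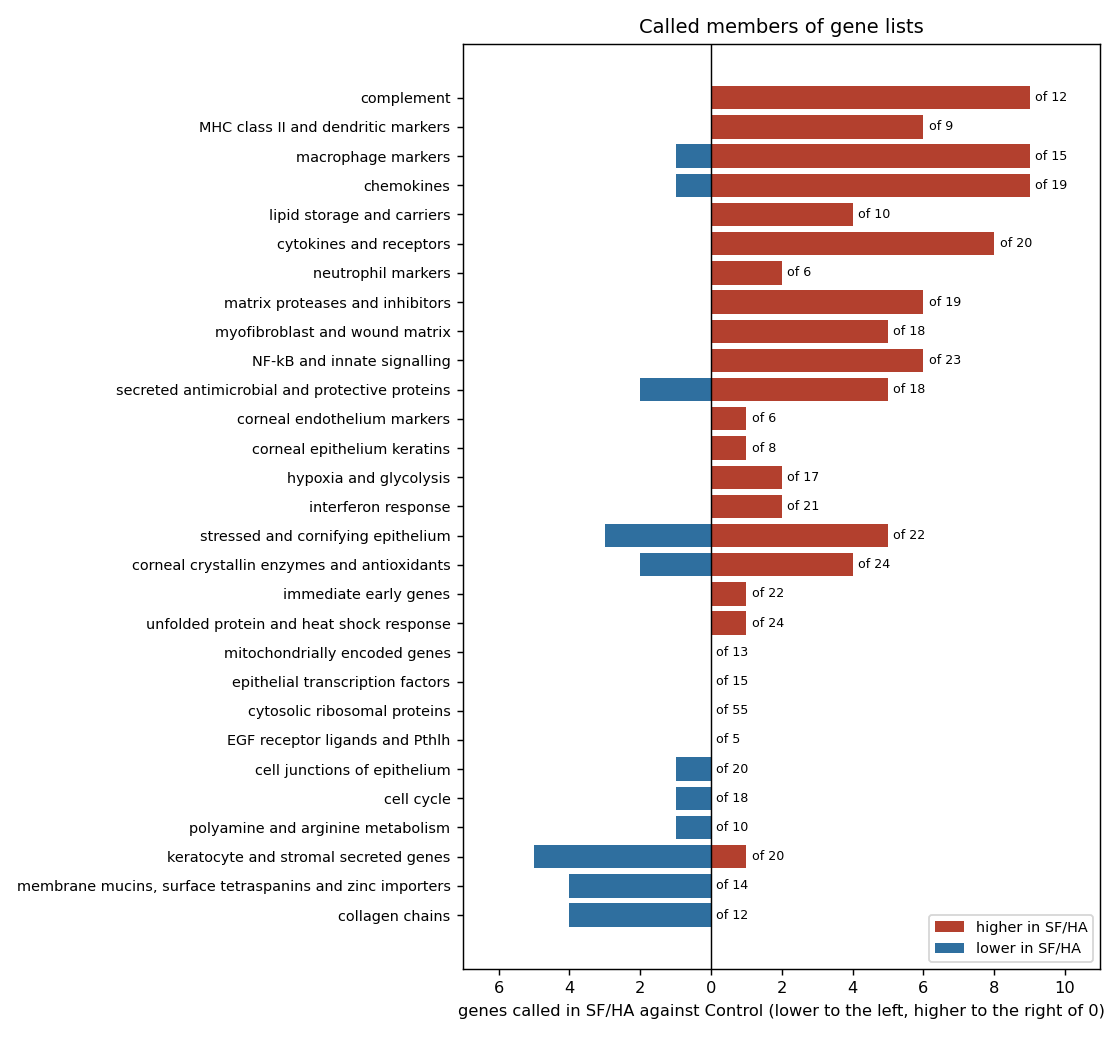
Number of called genes per list, with bars to the right for genes higher and to the left for genes lower in SF/HA than in Control, and the number of tested genes of each list beside its bar. Complement (9 of 12), MHC class II and dendritic markers (6 of 9), macrophage markers (9 of 15) and chemokines (9 of 19) lie far to the right, and collagens (4 of 12) to the left. The lists were chosen with earlier results of these data known.

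Other lists had few calls, to be read beside the 4.56% called over all tested genes. Cytosolic ribosomal proteins had 0 calls among 55 tested with limma, although 52 had log2 differences above 0 and the median was 0.41, against 0.00301 over all tested genes (38 at an unadjusted p below 0.05, and 0 calls with voom). Mitochondrially encoded genes had 0 calls among 13 (6 at an unadjusted p below 0.05, and 0 calls with voom), and 1 was called lower under quantile normalization. EGF receptor ligands had 0 calls among 5 (0 at an unadjusted p below 0.05, and 0 calls with voom), with Hbegf, a ligand of corneal wounds, at 24.8, 26.1 and 24.8 FPKM in SF/HA corneas, against 23.7, 29.2 and 27.5 FPKM in Control corneas. Among 18 cell cycle genes Ccnd1, cyclin D1, fell (log2 difference -1.21 ± 0.29 (SE), adjusted p = 0.0332). Ccnd1 was not called without SF/HA replicate 2 (adjusted p = 0.0903), SF/HA replicate 3 (adjusted p = 0.106), Control replicate 2 (adjusted p = 0.113) and Control replicate 3 (adjusted p = 0.103). Immediate early genes had Ier3, given above, as the single call among 22, and heat shock and unfolded protein genes had Trib3, a stress-induced pseudokinase with 5, 6 and 5 reads in SF/HA corneas, against 1, 0 and 1 reads in Control corneas, among 24. Trib3 was not called without SF/HA replicate 2 (adjusted p = 0.0621), Control replicate 2 (adjusted p = 0.0798) and Control replicate 3 (adjusted p = 0.0614). Polyamine and arginine genes had the fall of Arg1 among 10.

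Markers of other cell types were present to different degrees. Lacrimal and meibomian gland genes had 0 members above the filter, and the goblet cell genes Tff1, Tff2, Agr2 and Muc5b had 0 reads in all 6 libraries. Conjunctival and goblet cell markers together summed to 172 to 349 FPKM in SF/HA and 267 to 478 FPKM in Control corneas, most of it Krt13, a keratin of conjunctiva, which had 455, 362 and 1337 reads in SF/HA corneas, against 538, 908 and 1902 reads in Control corneas and did not pass the test (log2 difference -0.54 ± 0.40 (SE), adjusted p = 0.491). Krt4, its partner keratin, did not pass either (log2 difference -0.83 ± 0.36 (SE), adjusted p = 0.204). T, B, NK and mast cell markers had 1 member tested, which was not called. The summed level of vascular and lymphatic endothelium markers was 2.81 to 7.51 FPKM in SF/HA and 1.21 to 3.61 FPKM in Control corneas, and 0 of 2 tested were called. Members differed in direction. Kdr had 18, 9 and 8 reads in SF/HA corneas, against 35, 27 and 28 reads in Control corneas. Plvap had 13, 5 and 44 against 2, 0 and 4 reads, and Eng had 25, 17 and 40 against 13, 11 and 16 reads. Platelet factor 4, Pf4, rose, with 23, 48 and 41 reads in SF/HA corneas, against 8, 0 and 7 reads in Control corneas. Pf4 was not called without SF/HA replicate 1 (adjusted p = 0.0662), SF/HA replicate 2 (adjusted p = 0.122), SF/HA replicate 3 (adjusted p = 0.0931), Control replicate 2 (adjusted p = 0.0545) and Control replicate 3 (adjusted p = 0.0784). Without Control replicate 1 its difference was 4.20 and without Control replicate 2 it was 2.18. Blood and plasma markers summed to 35.2 to 103 FPKM in SF/HA and 0.0738 to 17.4 FPKM in Control corneas, and their part in the rise of myeloid genes was not tested. Corneal endothelium markers summed to 133 to 139.9 FPKM in SF/HA and 68.7 to 168 FPKM in Control corneas, most of it Aqp1, a water channel that other cells share. The list had Car2, carbonic anhydrase 2, as the call among 6 tested, with 37, 23 and 93 reads in SF/HA corneas, against 2, 2 and 6 reads in Control corneas (log2 difference 2.03 ± 0.34 (SE), adjusted p = 0.00716). Without Control replicate 1, 2 were called. Nerve and Schwann cell markers summed to 24.8 to 71.1 FPKM in SF/HA and 220.2 to 434 FPKM in Control corneas, most of it Npy. Of the others, Gap43, a protein of growing axons whose long gene left it under the filter, had 7, 2 and 4 reads in SF/HA corneas, against 61, 33 and 34 reads in Control corneas. All SF/HA libraries had fewer reads than all Control libraries, though at depths that differ by about 2-fold within each group. S100b, a calcium-binding protein of Schwann cells, went the other way, with 16, 6 and 18 reads in SF/HA corneas, against 3, 2 and 0 reads in Control corneas. The Schwann cell genes Sox10 and Cdh19 had 0 reads in all 6.

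The same genes were set beside the other groups, each of which was also tested against the same 3 Control libraries, so that those comparisons are not independent of this one. Against Control, 270 genes (4.42%) were higher and 78 (1.28%) lower in Alkali-burned corneas, or 5.69% in all. Likewise 563 (9.21%) were higher and 146 (2.39%) lower in SF/HA-HEP-PAM corneas, or 11.6% in all. In the direct comparison, 23 genes (0.376%) were higher and 126 (2.06%) lower in SF/HA than in Alkali-burned corneas, or 2.44% in all. Ccl20 averaged 238 ± 79.7 FPKM in SF/HA, 74 ± 43.7 in Alkali-burned, 106 ± 11.5 in SF/HA-HEP-PAM and 26.1 ± 8.59 in Control corneas (SD, n = 3 each). It was higher in SF/HA than in Alkali-burned corneas by 1.76 ± 0.39 on the log2 scale (adjusted p = 0.038). G0s2 averaged 410.4 ± 349 FPKM in SF/HA, 45.3 ± 18.3 in Alkali-burned, 248 ± 162 in SF/HA-HEP-PAM and 17 ± 1.87 in Control corneas (log2 difference 2.9 ± 0.61 (SE), adjusted p = 0.0295, SF/HA minus Alkali-burned). Tyrobp averaged 36.6 ± 15.3 FPKM in SF/HA, 11 ± 2.21 in Alkali-burned, 18.7 ± 3.17 in SF/HA-HEP-PAM and 2.6 ± 1.44 in Control corneas (log2 difference 1.6 ± 0.32 (SE), adjusted p = 0.0227, in the same direction of subtraction).

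Tnf, which did not differ detectably between SF/HA and Control, averaged 6.16 ± 2.19 FPKM in SF/HA, 26.2 ± 8.81 in Alkali-burned, 7.93 ± 3.54 in SF/HA-HEP-PAM and 6.96 ± 2.69 in Control corneas. It was lower in SF/HA than in Alkali-burned corneas (log2 difference -1.92 ± 0.38 (SE), adjusted p = 0.0207), a difference that was called. Arg1 averaged 4.5 ± 1.55 FPKM in SF/HA, 18.9 ± 5.17 in Alkali-burned, 3.7 ± 0.219 in SF/HA-HEP-PAM and 19.8 ± 2.27 in Control corneas. SF/HA minus Alkali-burned was -1.87 ± 0.25 (adjusted p = 0.00367), and the difference was called. Slc39a4 and Duoxa2 of the epithelial surface averaged 30.6 ± 5.36 and 24.4 ± 8.33 FPKM in SF/HA and 154 ± 27.5 and 117 ± 14.4 FPKM in Alkali-burned corneas. Their log2 differences from Alkali-burned were -2.29 and -2.27, with adjusted p = 0.00059 and 0.00183. Adm, adrenomedullin, a vasoactive peptide induced by hypoxia, averaged 113 ± 26.2 FPKM in SF/HA, 21.9 ± 2.75 in Alkali-burned, 179 ± 62.3 in SF/HA-HEP-PAM and 91.6 ± 18.4 in Control corneas. It was no call against Control but was higher in SF/HA than in Alkali-burned corneas (log2 difference 2.29 ± 0.29 (SE), adjusted p = 0.00324). For Cxcl1, Serping1 and Tagln the log2 differences of SF/HA minus Alkali-burned were 0.51, 0.41 and -1.05, with adjusted p = 0.345, 0.444 and 0.298, and these 3 did not pass the test. Krt15 averaged 55.3 ± 28.3 FPKM in SF/HA, 22.4 ± 0.67 in Alkali-burned, 64.4 ± 37.1 in SF/HA-HEP-PAM and 11.7 ± 6.48 in Control corneas.

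**Figure D5:**
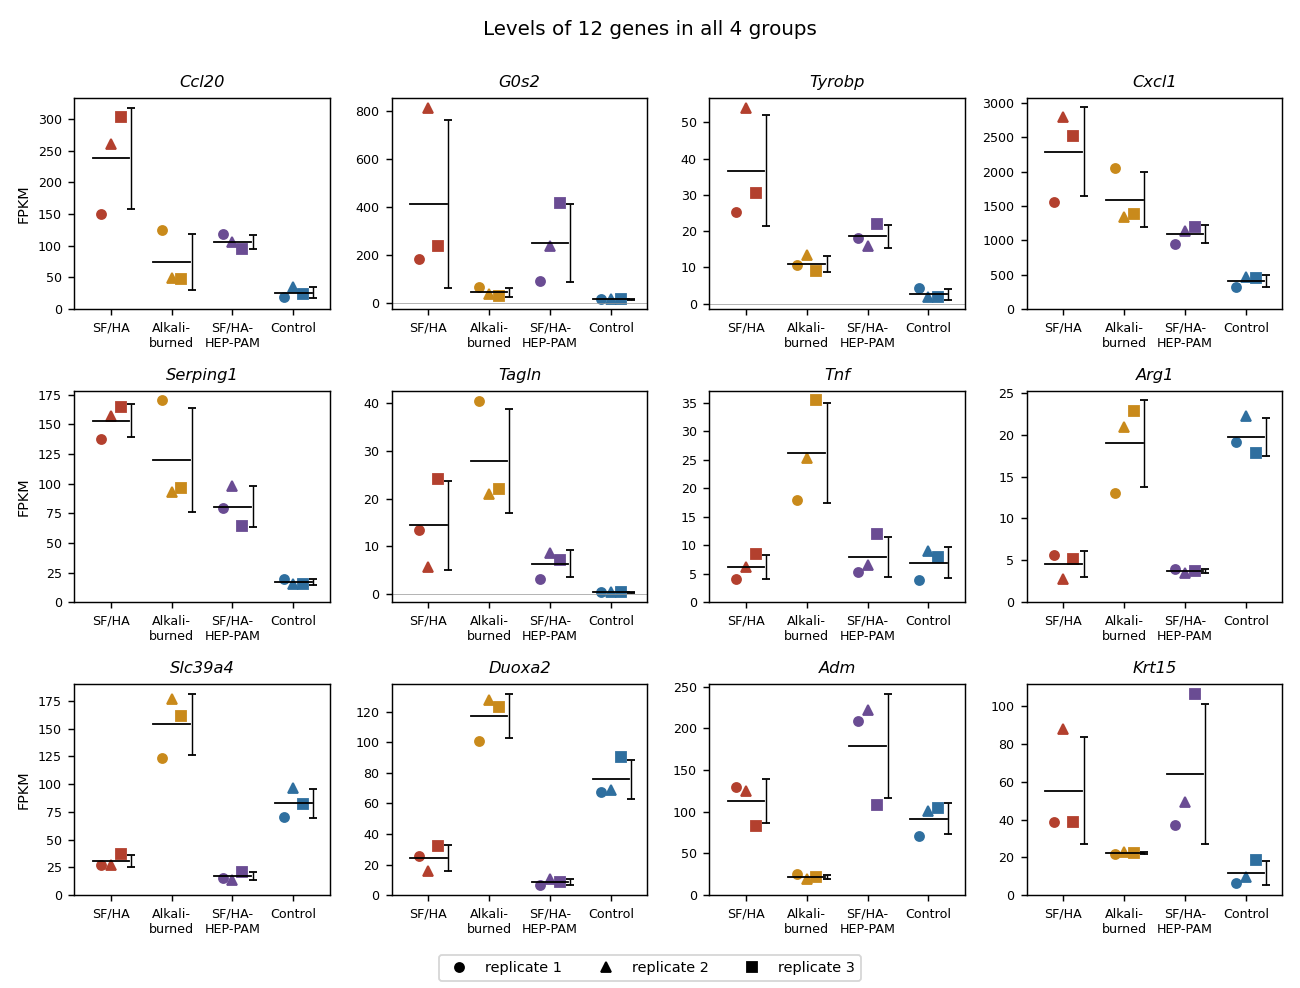
FPKM of 12 genes in each library of the SF/HA, Alkali-burned, SF/HA-HEP-PAM and Control groups, with marker shapes for replicates, lines for group means and bars for ±1 SD (n = 3). Ccl20 is highest in SF/HA, Tnf is highest in Alkali-burned, and Arg1, Slc39a4 and Duoxa2 are low in SF/HA and SF/HA-HEP-PAM and higher in Alkali-burned and Control corneas.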

How the data were processed

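Expression was measured by RNA sequencing of 12 rat cornea libraries, grouped by their labels. The deposited table holds FPKM values, with a column for each library. The authors cleaned the reads with fastp, used HTSeq-count for counting and called genes with DESeq2 (q under 0.05, fold above 2 or below 0.5), per the series text. The submitters' processing notes list bcl2fastq, fastp, STAR, featureCounts and DESeq2 on build mRatBN7.2, so the sources differ in the counting tool. Per the labels' protocols, poly(dT) primers carried barcodes for samples and molecules, and amplification followed the pooling of cDNA. Whether identical molecules were collapsed is not given in the sources used here.

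The gene length in the table equals the genomic span for all 30452 genes, of which 7092 have no symbol. A further 108 lines name no gene and were left out. FPKM times length gave whole reads in every library, with a largest deviation of 0.051, and these reads gave the depths. Floors are 3 reads and cover counting error only. Genes that reached 1 FPKM in 3 or more of the 12 libraries were tested with limma 3.58.1 in R 4.3.3, on log2(FPKM + 1) with a variance trend. All 12 libraries entered 1 model of 4 group means, and the contrast was SF/HA minus Control. P-values were adjusted by Benjamini-Hochberg over the 6112 genes, and calls needed an adjusted p below 0.05 and a log2 difference beyond 1. The steps were run on simulated counts with the same spread setting for all genes and no library that stood apart. That run therefore says nothing of libraries that stand apart, as in these data.

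Genes were matched to 37 lists of 767 symbols, of which 707 were in the table, and counts are of gene IDs. The genes compared and the lists were chosen with earlier results of these data known. For naming, called genes needed a symbol, a mean of 5 FPKM or more in 1 group and no overlap between groups, and the top 12 in each direction were taken, plus called members and the most abundant member of each list, and 12 fixed genes. Pax6, Slc39a2, Mrc1, Csf1r and Gap43, other marker genes given by reads, and the genes of the closing observations were named outside this rule. They were named after their values were seen. Alternatives changed the pseudocount, filter, scaling, libraries in the fit, replicate block and library weights, left out libraries, or used voom on the recovered reads with at least 10 reads in 3 libraries. A minimum of 10 reads, and leaving out both Control replicate 1 and SF/HA replicate 2, were added after the data were seen. Promoter sequences came from RefSeq (GRCr8) and were matched by symbol. Python 3.11.15 with matplotlib 3.10.9 drew the figures.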

Additional observations from a re-analysis of the deposited data

How the results depend on the processing

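The total of 279 called genes (195 higher, 84 lower) was 139 (92 and 47) with a pseudocount of 5, 174 (132 and 42) with no filter on low values, 93 (77 and 16) with only the 6 compared libraries in the fit, which leaves fewer residual degrees of freedom, and 424 (302 and 122) with voom on the recovered reads, which tested 8653 genes; beyond these constructions the cause was not tested. Of the 279 genes, 91 were called in the same direction with only the 6 libraries and 229 with voom. Without 1 library the total was 196 to 357, the higher genes 135 to 237 and the lower genes 47 to 120, and 148 of the 279 genes kept their call in all 6 such fits. The count of lower genes was 47 without SF/HA replicate 2. A pseudocount of 0.5, a filter of 5 FPKM, a minimum of 10 reads, median-of-ratios scaling, quantile normalization, library weights and leaving out both libraries that stood apart gave 227 to 364 calls. No called gene changed its sign in any of these fits. Same-numbered SF/HA and Control libraries deviated together with correlations of -0.0283, 0.000882 and 0.0853. Libraries of unlike number had -0.0963 to 0.0739, and so few libraries cannot decide whether the numbers pair samples. With the replicate block 256 genes were called (179 higher, 77 lower). Of the 115 named called genes, 78 kept their call in all 6 fits without 1 library. Depth limits genes of few reads, whose calls rest on 0 to 3 reads in a library.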

Other observations

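Outside the lists, 115 genes were called higher and 60 lower in SF/HA than in Control corneas; those named here were chosen after their values were seen. Mgp, matrix Gla protein, an inhibitor of calcification, had 3141, 3101 and 3843 FPKM in SF/HA corneas, against 792, 362 and 456 FPKM in Control corneas (log2 difference 2.72 ± 0.26 (SE), adjusted p = 0.000335). The lowest SF/HA library was more than 3 times the highest Control library. Other extracellular proteins that rose were Ccn3, Efemp2, Igfbp7, Gas6, Cpxm1 and Rarres2, the chemoattractant chemerin, with log2 differences of 2.84, 1.65, 1.64, 1.44, 1.57 and 1.98. S100a6, a calcium-binding protein, averaged 668 ± 118 FPKM in SF/HA and 101 ± 22.6 FPKM in Control corneas (SD, n = 3 each; log2 difference 2.72 ± 0.38 (SE), adjusted p = 0.00264), and S100a4 had a log2 difference of 2.77. Leukocyte genes that rose were Ctsz, a lysosomal carboxypeptidase (log2 difference 2.63 ± 0.19 (SE), adjusted p = 9.1e-05), Laptm5, Fgl2, Bcl2a1 and Cxcr4, the receptor for Cxcl12, with log2 differences of 1.63, 1.92, 2.73 and 1.97. Lrg1, a secreted glycoprotein of the acute phase, had 9.12, 27.0 and 5.91 FPKM in SF/HA corneas, against 0.895, 0 and 0.857 FPKM in Control corneas (log2 difference 3.04 ± 0.48 (SE), adjusted p = 0.00504). Il18bp, which binds interleukin 18, and Dusp2, a phosphatase of MAP kinases, also rose, with log2 differences of 2.20 and 2.11. The largest level among genes without a descriptive symbol was AC128848.1, with 3168, 3862 and 5269 FPKM in SF/HA corneas, against 1224, 524 and 548 FPKM in Control corneas (log2 difference 2.50 ± 0.35 (SE), adjusted p = 0.00264).

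Among genes that fell outside the lists, Cst6, a secreted inhibitor of cysteine proteases, had 1016, 621 and 806 FPKM in SF/HA corneas, against 1547, 3668 and 2853 FPKM in Control corneas (log2 difference -1.66 ± 0.31 (SE), adjusted p = 0.011). Aqp5, the water channel of corneal epithelium, had 659, 204 and 436 FPKM in SF/HA corneas, against 788, 1713 and 1529.6 FPKM in Control corneas (log2 difference -1.71 ± 0.45 (SE), adjusted p = 0.0488). All SF/HA libraries were below all Control libraries in both. Aqp5 was not called without SF/HA replicate 2 (adjusted p = 0.118), SF/HA replicate 3 (adjusted p = 0.0992), Control replicate 2 (adjusted p = 0.157) and Control replicate 3 (adjusted p = 0.133). Wnt11, a secreted signal, and Sparcl1, a matrix protein, averaged 2.02 ± 0.778 FPKM in SF/HA and 8.74 ± 3.78 FPKM in Control corneas and 1.97 ± 0.0964 FPKM in SF/HA and 9.70 ± 5.77 FPKM in Control corneas (SD, n = 3 each), with log2 differences of -1.65 and -1.73. Plac8 had 9.48, 3.75 and 15.8 FPKM in SF/HA corneas, against 27.5, 56.9 and 46.1 FPKM in Control corneas (log2 difference -2.18 ± 0.41 (SE), adjusted p = 0.0122). Plac8 was not called without Control replicate 2 (adjusted p = 0.0515).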
